A study of Mus musculus with 4 samples.

Results

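The glycolysis and hypoxia response genes are a group of 38 mouse genes. Most carry glucose or lactate across the membrane, break glucose down to pyruvate and lactate, or belong to the hypoxia-inducible factor (HIF) pathway and its targets. Phkb, a gene of glycogen breakdown, is none of these but was on the list and is included in the counts below. The genes were taken as every probe set whose platform gene symbol was on the list of names. Of the 38 genes, 33 had such a probe set, 57 probe sets in all, out of 17097 named genes and 45141 probe sets on the array. Gpi1, Pgam1, Eno1, P4ha1 and Ero1l had no probe set under that symbol alone and were not analysed here as members. Gene expression was measured in J1 mouse embryonic stem cells of the iP14 line, in which doxycycline induces PRDM14, grown without feeder cells in medium with serum and LIF. The groups were Tet1/Tet2 KD + PRDM14 (an shRNA knockdown of both Tet genes with PRDM14 overexpressed), Tet1/Tet2 KD (the knockdown alone), Scramble + PRDM14 (control cells with PRDM14 overexpressed) and Scramble (control cells, called wild type in the labels). Each group had 1 Affymetrix 3′ expression array, 4 in all, so no replicate error is available, and precision is limited by having 4 arrays. Whether the line is a single clone is not given in the sources used here.

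Glycolysis turns glucose into pyruvate in the cytosol, and lactate dehydrogenase can then reduce pyruvate to lactate. Pluripotent stem cells are known for a high rate of this pathway. HIF is a dimer whose alpha subunits are marked for destruction by oxygen-dependent prolyl hydroxylases. When oxygen is low the alpha subunits persist, and HIF binds short response elements near genes for glucose uptake, glycolytic enzymes, blood vessel growth and the removal of mitochondria.

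The embryonic stem cell label was checked against markers. Of 8 listed stem cell markers 7 were measured, and all 7 were above the expression filter on every array, with a mean log2 signal of 10.5 on both knockdown arrays and from 10.6 to 10.8 on the scramble arrays. Of 6 fibroblast markers 1, Dcn, was above the filter, of 6 primitive endoderm markers 2 were, and of 6 trophectoderm markers 3 were. The trophectoderm list averaged 5.67 on the Tet1/Tet2 KD + PRDM14 array, 5.59 on Tet1/Tet2 KD, 5.23 on Scramble + PRDM14 and 5.54 on Scramble. Its members did not move together. Krt18 read 7.74 on Tet1/Tet2 KD + PRDM14, 6.59 on Tet1/Tet2 KD, 6.40 on Scramble + PRDM14 and 6.46 on Scramble. Tfap2c read 6.10 on Tet1/Tet2 KD + PRDM14 against 7.61 on Tet1/Tet2 KD, and 5.44 on Scramble + PRDM14 against 7.23 on Scramble. Krt18 was thus highest on Tet1/Tet2 KD + PRDM14 and Tfap2c was lower on both arrays with PRDM14, by more than 2-fold in each case, while the defining markers Cdx2, Elf5 and Gata3 were below the filter on all arrays. The part of such cells in the results was not tested. The filter was a log2 signal of 5.40, the median of all named probe set values, and is not a measure of background. Tet2 read 8.15 on the Tet1/Tet2 KD + PRDM14 array against 9.33 on Scramble + PRDM14, and 7.50 on Tet1/Tet2 KD against 8.46 on Scramble. Tet1 was not analysed here. Prdm14 stayed below the filter on all 4 arrays, at 4.61 on Tet1/Tet2 KD + PRDM14 against 4.35 on Tet1/Tet2 KD and at 4.83 on Scramble + PRDM14 against 4.53 on Scramble. The PRDM14 labels were thus not checked by its own probe set, and every PRDM14 direction below rests on them. The Scramble array stood furthest apart, with 49 genes at least 2-fold beyond all other arrays, against 27 on Scramble + PRDM14, 12 on Tet1/Tet2 KD + PRDM14 and 7 on Tet1/Tet2 KD.

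The promoters of the 4 genes with the largest 2-fold differences are shown because many genes of the group answer to HIF, whose response element has a known core. Each run is the 250 bases before the gene start annotated by RefSeq, on build GRCm38.p6, 5′ to 3′ on the gene's strand. Capitals mark the letters ACGTG or GCGTG, the HIF response element cores, or their reverse complements CACGT and CACGC. Phkb encodes the beta subunit of phosphorylase kinase, Mgarp a mitochondrial protein known as a HIF target, Slc2a1 a glucose transporter and Pfkp the platelet-type phosphofructokinase.
Phkb (chr8:85840738-85840987, plus strand): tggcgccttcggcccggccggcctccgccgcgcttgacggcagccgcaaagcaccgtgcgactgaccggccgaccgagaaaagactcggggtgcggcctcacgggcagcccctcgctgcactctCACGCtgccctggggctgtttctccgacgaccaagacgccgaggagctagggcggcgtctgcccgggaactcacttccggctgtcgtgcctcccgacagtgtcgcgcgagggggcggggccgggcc
Mgarp (chr3:51396548-51396797, minus strand): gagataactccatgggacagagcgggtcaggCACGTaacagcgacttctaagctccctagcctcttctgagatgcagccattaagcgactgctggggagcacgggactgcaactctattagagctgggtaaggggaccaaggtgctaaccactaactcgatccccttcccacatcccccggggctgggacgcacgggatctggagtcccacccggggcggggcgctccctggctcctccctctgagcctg
Slc2a1 (chr4:119108495-119108744, plus strand): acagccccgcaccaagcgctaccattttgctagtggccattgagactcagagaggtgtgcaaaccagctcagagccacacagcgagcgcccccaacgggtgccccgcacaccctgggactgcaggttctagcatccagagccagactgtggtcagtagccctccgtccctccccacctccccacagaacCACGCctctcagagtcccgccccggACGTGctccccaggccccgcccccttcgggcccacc
Pfkp (chr13:6648772-6649021, minus strand): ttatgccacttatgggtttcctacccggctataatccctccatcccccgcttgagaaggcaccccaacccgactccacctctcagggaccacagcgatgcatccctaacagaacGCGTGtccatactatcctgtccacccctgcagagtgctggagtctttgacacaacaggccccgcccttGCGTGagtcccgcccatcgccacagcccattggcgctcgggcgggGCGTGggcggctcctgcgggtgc
Slc2a1 held 2 cores, 61 and 36 bases before the start and on opposite strands, and Pfkp held 3 on the gene's strand, 136, 68 and 23 bases before it. Phkb and Mgarp held 1 each on the opposite strand, at 126 and 219 bases. Overlapping matches were counted as 1 core.

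Such cores were frequent in the whole group. Of 33 measured genes 30 had a RefSeq promoter entry, and 28 of these (93.3%) held at least 1 core in at least 1 entry, against 60.1% of 8499 genes above the filter. Genes can have several starts, so the same was counted by window. A core lay in 34 of 42 windows of the group (81.0%), against 54.5% of 10878 windows of genes above the filter. The windows of the group had a median GC content of 61.6%, against 59.6% for genes above the filter. Among 5023 windows of genes above the filter with a GC content between 54.6% and 67.6%, the quartiles of the group, 60.3% held a core. The 2 measured genes with an entry and no core were Tpi1 and Eno2. Tpi1 was among the genes with a 2-fold difference. Many of the genes were listed because they are known HIF targets, so the excess describes the list, and a match is not a binding site.

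The group read high on the Scramble + PRDM14 array. Of 33 measured genes 32 reached the filter on at least 1 array, the exception being Eno2, and 15 of the 32 (46.9%) had their highest signal on Scramble + PRDM14, against 25.9% of all 10519 genes above the filter. Only Pfkm of the 32 (3.13%) had its lowest signal there, against 26.5% of all genes. The Tet1/Tet2 KD + PRDM14 array was the lowest for 12 of the 32 genes (37.5%), against 21.7% of all genes. It was the highest for 6 genes, as was Scramble, and Tet1/Tet2 KD was the highest for 5. In such bulk RNA, fewer cells of a type and less RNA per cell cannot be told apart. In 15 of the 32 genes the 4 arrays spanned less than 0.5 on the log2 scale, so for many genes the order of the arrays rests on small differences.

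**Figure D1:**
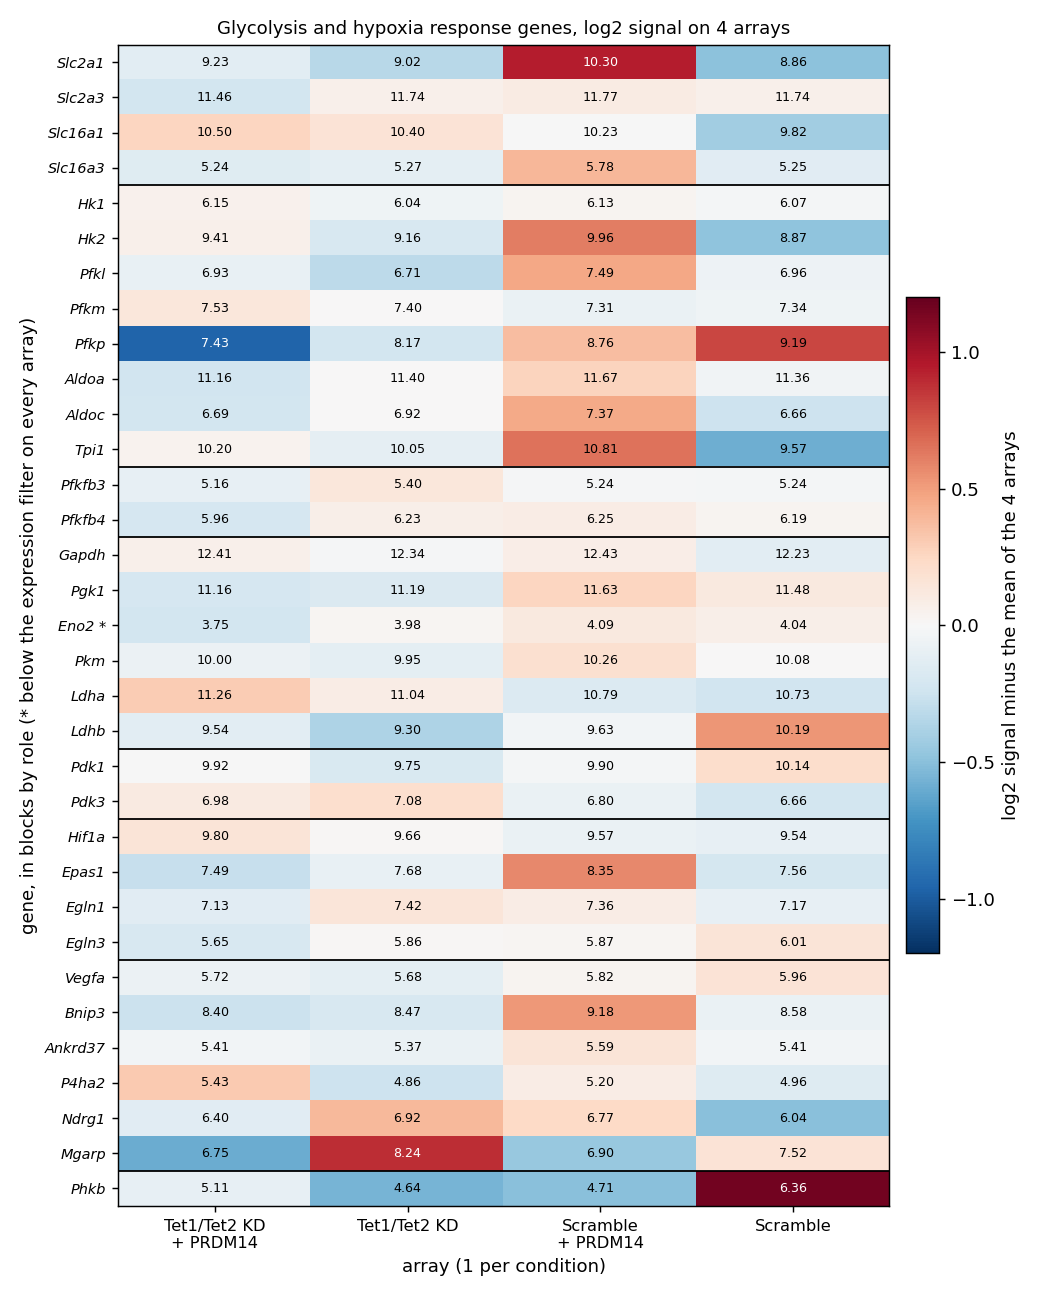
Log2 signal of the brightest probe set of each of the 33 measured genes (rows, in blocks by role) on the 4 arrays (columns, 1 array per condition). The printed number is the log2 signal and the colour its difference from the mean of the 4 arrays. Slc2a1, Hk2, Tpi1 and Epas1 are reddest on Scramble + PRDM14, at 10.30, 9.96, 10.81 and 8.35, and Phkb on Scramble, at 6.36.

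**Figure D2:**
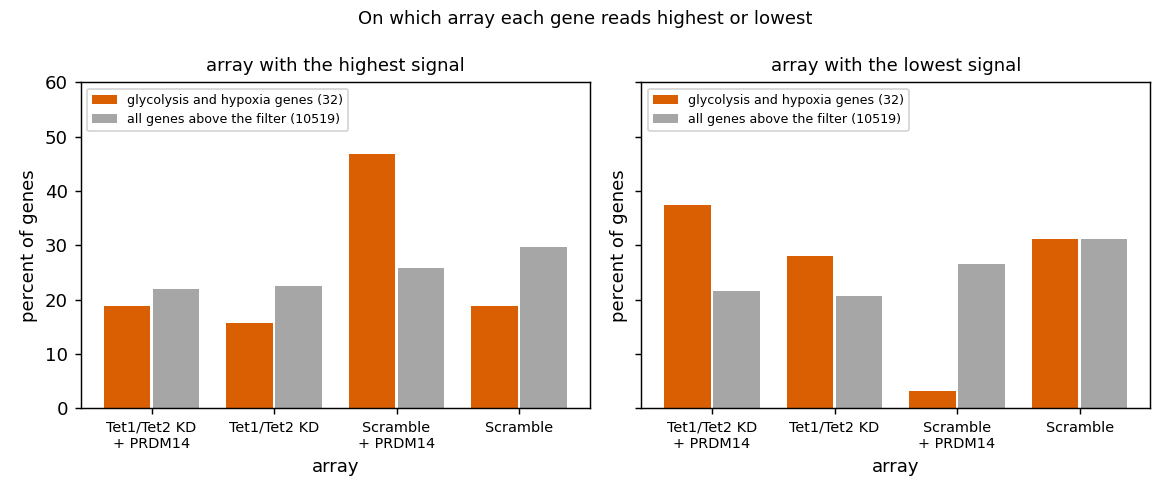
Percent of genes (vertical axis) whose signal was highest (left) or lowest (right) on each array, for the 32 genes of the group above the filter and for all 10519 genes above it. The group's tallest bar for the highest signal is Scramble + PRDM14 at 46.9%, where its bar for the lowest signal is the shortest at 3.13%.

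With PRDM14 in scramble cells, the glucose transporter Slc2a1, the first enzyme of the pathway Hk2 and the triose phosphate isomerase Tpi1 were more than 2-fold higher, and Phkb was more than 2-fold lower. A gene was called when the 2 arrays differed at least 2-fold and the higher one reached the filter. This is a rule of size, not a test. The group was chosen with earlier results of these data known. Its excess over all genes, in array order, calls and medians alike, is thus not an independent result. The calls were 4 of 30 genes of the group above the filter in this comparison (13.3%), where percent called was 2.09 over all 10366 genes. Higher calls were 3 of 30, against 1.09% of all genes, and the lower call was 1 of 30, against 1% of all genes. The group's median log2 difference was 0.16 and that of all genes 0.002, and 22 of the 30 genes were above 0, against 50.4% of all genes.

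With PRDM14 in Tet1/Tet2 knockdown cells, none of those genes was 2-fold higher. Mgarp was 2-fold lower and the sole call among 30 genes above the filter (3.33%), against 0.63% of 10311 genes, and against 0.272% for lower calls. The median was 0.04, against −0.0009 for all genes, with 16 genes above and 14 below 0. The PRDM14 differences in the 2 backgrounds share no array. Their sign was the same in 15 of the 32 genes, against 55.3% of all genes, and 12 genes were above 0 in scramble and below 0 in knockdown cells (22.8% of all genes).

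Without PRDM14, the knockdown array read 2-fold lower than Scramble for Pfkp and Phkb, 2 of 30 genes (6.67%), against 1.06% of 10351 genes in either direction and 0.444% for lower calls. The median was 0.05, against 0.008 for all genes. With PRDM14, the Tet1/Tet2 KD + PRDM14 array read 2-fold lower than Scramble + PRDM14 for Pfkp and Slc2a1, again 2 of 30 (6.67%), against 1.1% of 10322 genes in either direction and 0.475% for lower calls. Here the median was −0.25, against 0.003 for all genes, and 22 of 30 genes were below 0. This shift and the opposite one for PRDM14 in scramble cells both use the Scramble + PRDM14 array, so they are not separate results.

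A lower limit of 1.5-fold added genes in each comparison. With PRDM14 in scramble cells, 9 of 30 genes passed it, against 8.19% of all genes, and 7 of them were higher, against 4.28%. Besides Slc2a1, Tpi1 and Hk2, the higher genes were the HIF subunit Epas1, the hypoxia-induced Ndrg1, the aldolase Aldoc and the mitophagy receptor Bnip3. The other 2, against 3.91% of all genes, were lower, Phkb and Mgarp. For the knockdown with PRDM14, 6 of 30 passed, against 4.34%, and all 6 were lower, against 1.95%. They were Pfkp, Slc2a1, Epas1, Bnip3, Aldoc and Tpi1. For PRDM14 in knockdown cells 2 of 30 passed, against 2.81%, and both were lower, Mgarp and Pfkp, against 1.35%. For the knockdown without PRDM14, 5 of 30 passed, against 5.09%, in both directions. Ndrg1 (0.89) and Mgarp (0.72) were higher, 2 of 30 against 2.93%, and Phkb, Pfkp and the lactate dehydrogenase subunit Ldhb were lower, 3 of 30 against 2.16%. The dependence on the knockdown, the difference between the 2 PRDM14 differences, gave 10 of 32, against 9.1%, of which 8 were below 0, against 4.72%, and 2 above, against 4.37%.

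**Figure D3:**
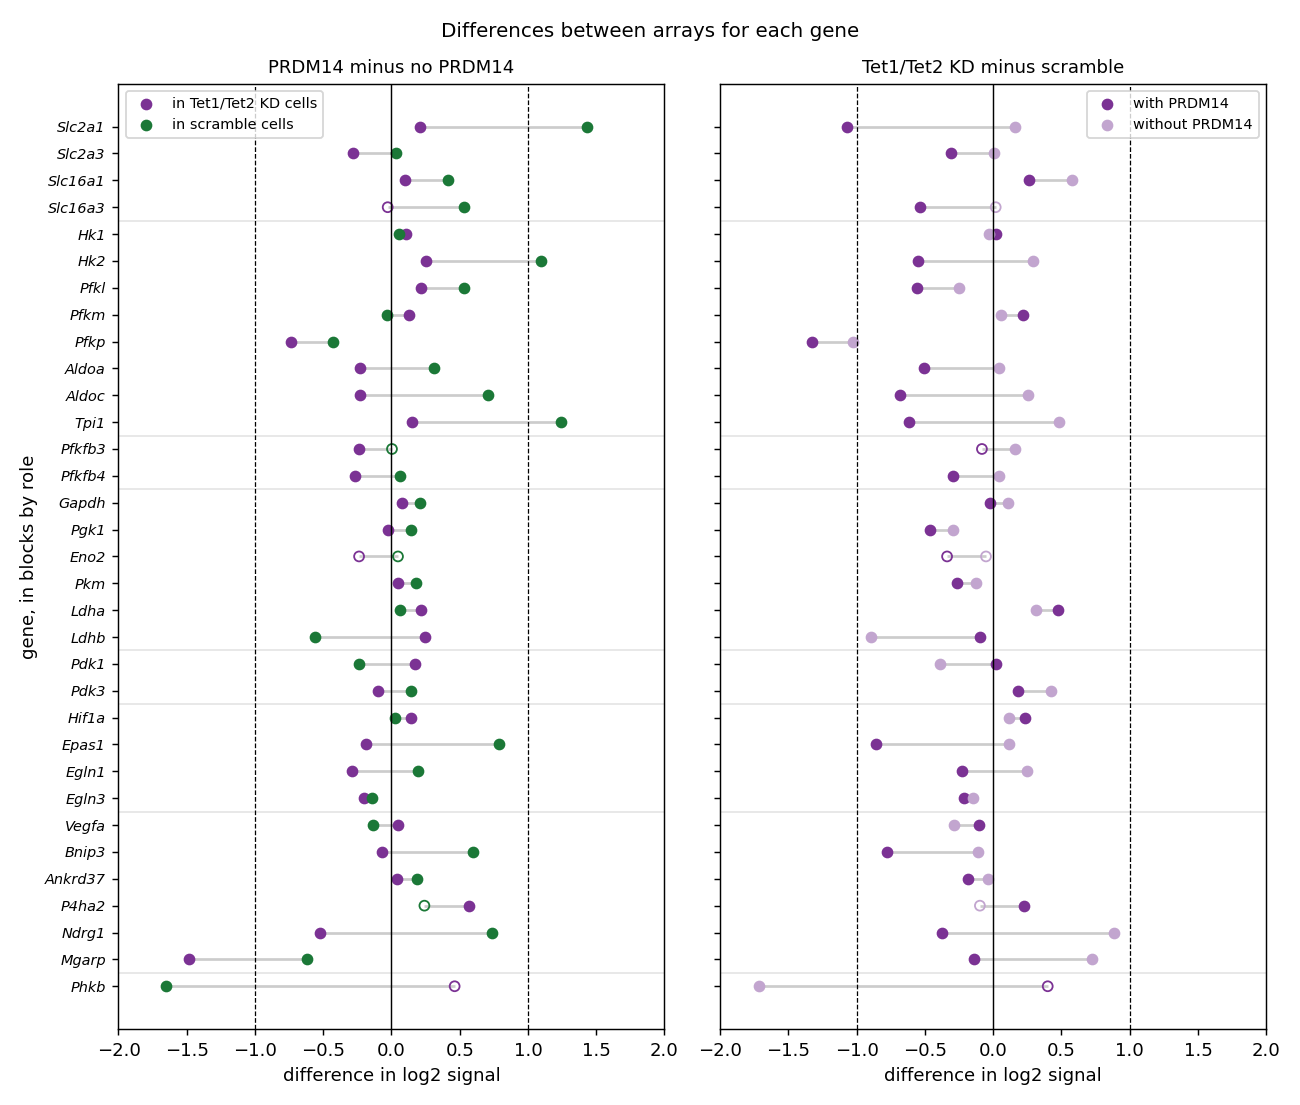
Difference in log2 signal (horizontal axis) for each of the 33 genes (rows). Left, PRDM14 minus no PRDM14 in knockdown (purple) and scramble (green) cells. Right, knockdown minus scramble with PRDM14 (dark) and without it (light). Open circles mark pairs of arrays both below the filter and dashed lines a 2-fold difference. Slc2a1 lies at 0.21 in knockdown and 1.44 in scramble cells.

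Among the transporters, Slc2a1 had the largest PRDM14 difference. It read 9.23 on Tet1/Tet2 KD + PRDM14, 9.02 on Tet1/Tet2 KD, 10.30 on Scramble + PRDM14 and 8.86 on Scramble. The Scramble + PRDM14 array was the high one, 1.07 above the next on the log2 scale, and Scramble was the lowest. The PRDM14 difference was 0.21 in knockdown and 1.44 in scramble cells. The scramble value is a 2.71-fold difference and ranked 40 of 10366 genes from the highest. Its second probe set gave 0.17 and 1.08. Between the arrays with PRDM14, the knockdown difference was −1.07 on the first probe set and −0.97 on the second.

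The other transporters differed less. Slc2a3, another glucose transporter, read 11.46 on Tet1/Tet2 KD + PRDM14 and from 11.74 to 11.77 on the other arrays. All 4 of its probe sets were lower with PRDM14 in knockdown cells, with differences from −0.28 to −0.37. The lactate transporter Slc16a1 read 10.50 on Tet1/Tet2 KD + PRDM14, 10.40 on Tet1/Tet2 KD, 10.23 on Scramble + PRDM14 and 9.82 on Scramble, the low array. Slc16a3, which exports lactate, reached the filter on Scramble + PRDM14 alone, at 5.78, and read from 5.24 to 5.27 elsewhere.

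In the upper part of glycolysis, 2 of the 8 measured genes were called higher with PRDM14 in scramble cells, against 1.09% of all genes, and the median difference was 0.42, against 0.002. Hk2, the hexokinase that traps glucose in the cell as its phosphate, read 9.41 on Tet1/Tet2 KD + PRDM14, 9.16 on Tet1/Tet2 KD, 9.96 on Scramble + PRDM14 and 8.87 on Scramble. Scramble + PRDM14 was highest by 0.55 and Scramble lowest by 0.29. The PRDM14 difference was 0.25 in knockdown and 1.09 in scramble cells, on the single Hk2 probe set. Hk1, the related hexokinase, spanned 0.10 over the 4 arrays.

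Tpi1, which interconverts the triose phosphates, read 10.20 on Tet1/Tet2 KD + PRDM14, 10.05 on Tet1/Tet2 KD, 10.81 on Scramble + PRDM14 and 9.57 on Scramble. It had the same order of arrays as Hk2, with a gap of 0.62 at the top and 0.48 at the bottom. The PRDM14 difference was 0.15 in knockdown and 1.24 in scramble cells, and 0.19 and 1.38 on its second probe set. The knockdown difference was −0.62 with PRDM14 and 0.48 without it. The brightest Tpi1 probe set, like those of Slc2a3, Aldoa, Gapdh and Ndrg1, carries a suffix that marks probe sets able to match similar transcripts. The second Tpi1 probe set does not, and Ndrg1 has no other probe set.

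The phosphofructokinase genes, which encode the committed step, did not move together. Pfkp read 7.43 on Tet1/Tet2 KD + PRDM14, 8.17 on Tet1/Tet2 KD, 8.76 on Scramble + PRDM14 and 9.19 on Scramble. Both knockdown arrays were below both scramble arrays, and within each background the array with PRDM14 was the lower. The knockdown difference was −1.33 with PRDM14 and −1.02 without it, a pair of comparisons without a shared array. Over all 10154 genes above the filter in both, 8 were 2-fold lower and 4 were 2-fold higher in both, and Pfkp was the one gene of the group among them. Its second probe set stayed below the filter on every array and gave −0.24 and −0.44. Pfkl, the liver-type enzyme, read 6.93 on Tet1/Tet2 KD + PRDM14, 6.71 on Tet1/Tet2 KD, 7.49 on Scramble + PRDM14 and 6.96 on Scramble, and Pfkm, the muscle type, spanned 0.22.

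The aldolases, which split the fructose bisphosphate, were highest on Scramble + PRDM14. Aldoa read 11.16 on Tet1/Tet2 KD + PRDM14, 11.40 on Tet1/Tet2 KD, 11.67 on Scramble + PRDM14 and 11.36 on Scramble. Its PRDM14 difference was −0.23 in knockdown and 0.31 in scramble cells, and all 4 probe sets gave these signs, from −0.21 to −0.26 and from 0.27 to 0.32. Aldoc read 6.69 on Tet1/Tet2 KD + PRDM14, 6.92 on Tet1/Tet2 KD, 7.37 on Scramble + PRDM14 and 6.66 on Scramble, and its dimmer probe set, below the filter on all arrays, differed by −0.17 in scramble cells. Pfkfb3 and Pfkfb4, whose products make and break the sugar bisphosphate that activates phosphofructokinase, were not called, and their largest difference was −0.29, for Pfkfb4 under the knockdown with PRDM14.

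**Figure D4:**
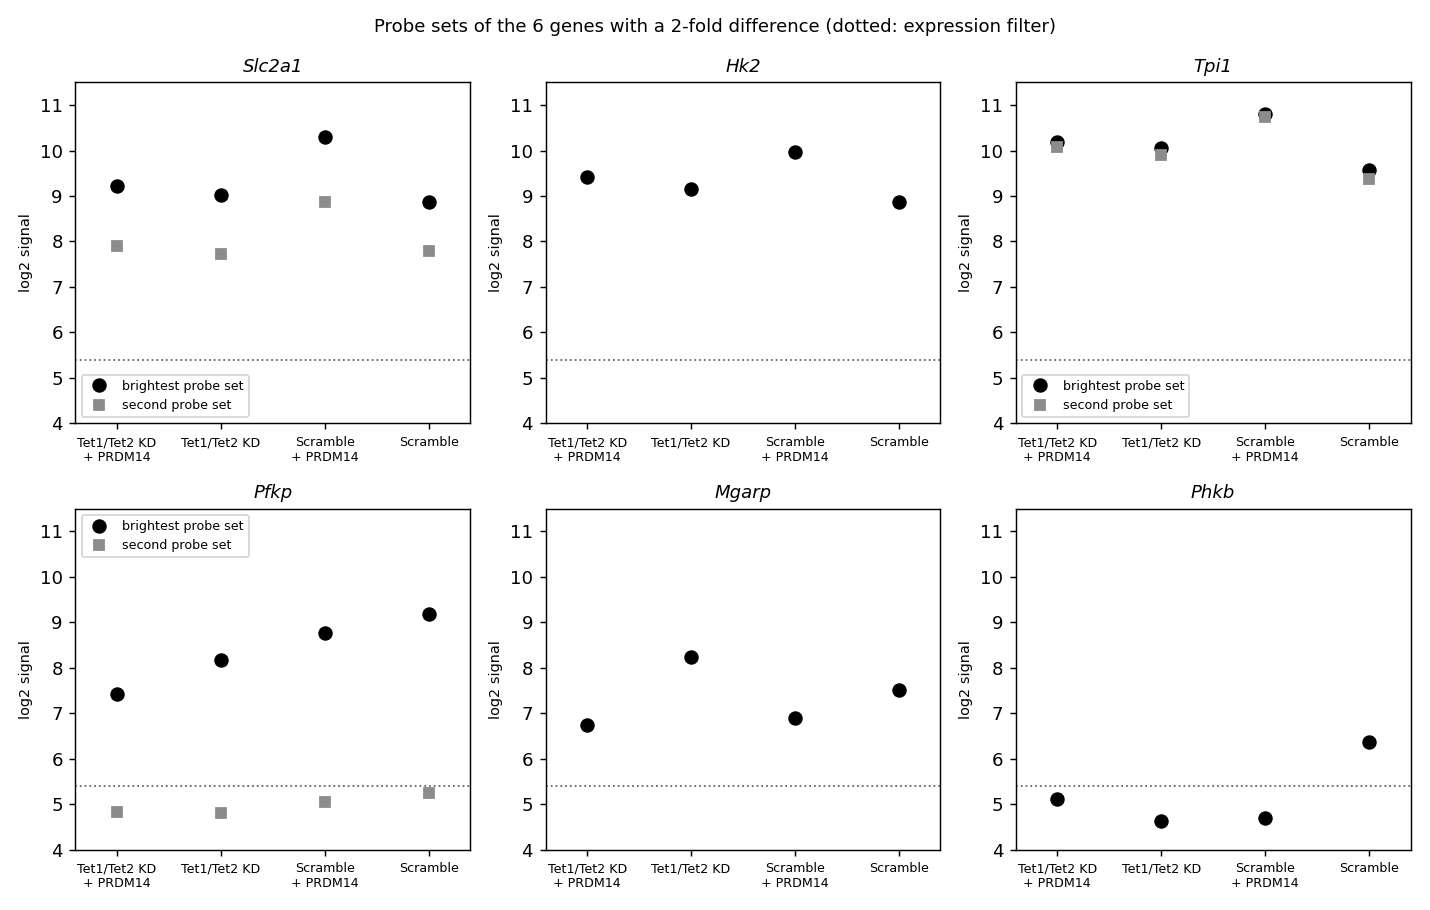
Log2 signal (vertical axis) on the 4 arrays for every probe set of the 6 genes called in any comparison, black for the brightest probe set and grey for the second, with the filter of 5.40 as a dotted line. Both probe sets of Slc2a1 and Tpi1 are highest on Scramble + PRDM14, and the second of Pfkp lies below the filter on all arrays.

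In lower glycolysis 5 of the 8 listed genes were above the filter, and none was called in any of the 4 comparisons. Over all genes percent called was 0.63 to 2.09, so a count of 0 among 5 genes is near that share. Gapdh, which oxidises the triose phosphate, read 12.41 on Tet1/Tet2 KD + PRDM14 against 12.34 on Tet1/Tet2 KD, and 12.43 on Scramble + PRDM14 against 12.23 on Scramble. The difference of 0.21 in scramble cells had a counterpart on the array's own Gapdh control probe sets, which lie at the 3′ end, the middle and the 5′ end of the transcript and gave 0.23, 0.28 and 0.31. In knockdown cells the controls gave 0.12, 0.07 and 0.06. Pgk1, the first of the pathway's enzymes that make ATP, read 11.16 on Tet1/Tet2 KD + PRDM14, 11.19 on Tet1/Tet2 KD, 11.63 on Scramble + PRDM14 and 11.48 on Scramble. Both of its probe sets were lower on the knockdown arrays, with differences of −0.46 and −0.57 with PRDM14 and of −0.29 and −0.30 without it. Pkm, the last enzyme before pyruvate, spanned 0.31.

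The lactate dehydrogenase subunits differed in their order of arrays. Ldha, the subunit that favours lactate, read 11.26 on Tet1/Tet2 KD + PRDM14, 11.04 on Tet1/Tet2 KD, 10.79 on Scramble + PRDM14 and 10.73 on Scramble, so both knockdown arrays were above both scramble arrays. Ldhb, whose tetramers favour pyruvate, was lower on both knockdown arrays than on both scramble arrays. Ldhb read 9.54 on Tet1/Tet2 KD + PRDM14, 9.30 on Tet1/Tet2 KD, 9.63 on Scramble + PRDM14 and 10.19 on Scramble, the high array. Its knockdown difference was −0.09 with PRDM14 and −0.90 without it, and −0.07 and −0.99 on its second probe set, just under 2-fold.

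Pdk1 and Pdk3 encode kinases that switch off pyruvate dehydrogenase and so keep pyruvate out of the mitochondrial cycle. Pdk1 read 9.92 on Tet1/Tet2 KD + PRDM14, 9.75 on Tet1/Tet2 KD, 9.90 on Scramble + PRDM14 and 10.14 on Scramble. All 3 Pdk1 probe sets were lower on Tet1/Tet2 KD than on Scramble, with differences of −0.39, −0.33 and −1.22, so the dimmest passed 2-fold and the brighter ones did not. Pdk3 was higher on both knockdown arrays, by 0.19 with PRDM14 and 0.42 without it.

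Of the 4 HIF and hydroxylase genes none was called in any of the 4 comparisons. Over all genes percent called was 0.63 to 2.09, so a count of 0 among 4 genes is near that share. Hif1a, the widely expressed alpha subunit, read 9.80 on Tet1/Tet2 KD + PRDM14, 9.66 on Tet1/Tet2 KD, 9.57 on Scramble + PRDM14 and 9.54 on Scramble, a span of 0.26. Since HIF is controlled mainly through protein stability, the transcript level does not give its activity. Epas1, which encodes the other main alpha subunit, read 7.49 on Tet1/Tet2 KD + PRDM14, 7.68 on Tet1/Tet2 KD, 8.35 on Scramble + PRDM14 and 7.56 on Scramble, so Scramble + PRDM14 stood 0.67 above the next array. Its PRDM14 difference was −0.19 in knockdown and 0.78 in scramble cells, while a dimmer probe set, below the filter on all arrays, gave 0.03 and 0.13. The hydroxylases Egln1 and Egln3 spanned 0.29 and 0.35.

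The HIF targets outside glycolysis were mixed. Mgarp read 6.75 on Tet1/Tet2 KD + PRDM14, 8.24 on Tet1/Tet2 KD, 6.90 on Scramble + PRDM14 and 7.52 on Scramble, so both arrays with PRDM14 were below both without it. Its PRDM14 difference was −1.49 in knockdown cells, a 2.80-fold difference that ranked 8 of 10311 genes from the lowest, and −0.62 in scramble cells. Ndrg1, a gene known to be induced by hypoxia, read 6.40 on Tet1/Tet2 KD + PRDM14, 6.92 on Tet1/Tet2 KD, 6.77 on Scramble + PRDM14 and 6.04 on Scramble. The PRDM14 difference of Ndrg1 was −0.52 in knockdown and 0.74 in scramble cells.

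Bnip3, a receptor for the removal of mitochondria, read 8.40 on Tet1/Tet2 KD + PRDM14, 8.47 on Tet1/Tet2 KD, 9.18 on Scramble + PRDM14 and 8.58 on Scramble, 0.60 above the next on Scramble + PRDM14. Vegfa, the blood vessel growth factor, differed by 0.04 with PRDM14 in knockdown and by −0.13 in scramble cells on its brightest probe set, which spanned 0.28. Its other probe set gave −0.87 and −1.29. That one read below the filter on Tet1/Tet2 KD + PRDM14 against 5.87 on Tet1/Tet2 KD, and 5.27 on Scramble + PRDM14 against 6.56 on Scramble. The Vegfa probe sets thus differed in size in both backgrounds and in sign in knockdown cells. On the other probe set Vegfa would have been called lower with PRDM14 in scramble cells, so its lack of a call rests on the choice of probe set. P4ha2, a subunit of the enzyme that hydroxylates collagen, reached the filter on Tet1/Tet2 KD + PRDM14 alone, at 5.43 against 4.86 on Tet1/Tet2 KD. Ankrd37, a HIF target, spanned 0.23.

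Ero1l is an older symbol of Ero1a, an oxidase of the endoplasmic reticulum, which was kept out of every count because the platform uses the newer symbol. The brightest Ero1a probe set read 7.51 on Tet1/Tet2 KD + PRDM14, 7.57 on Tet1/Tet2 KD, 7.68 on Scramble + PRDM14 and 7.32 on Scramble. It too was highest on Scramble + PRDM14.

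Phkb had the largest difference of the group. It read 5.11 on Tet1/Tet2 KD + PRDM14, 4.64 on Tet1/Tet2 KD, 4.71 on Scramble + PRDM14 and 6.36 on Scramble, 1.25 above the next array. The other 3 arrays were below the filter. Its differences from Scramble were −1.65 with PRDM14 and −1.72 with the knockdown, both counted from the same array. After low values were lifted to the filter, each was −0.96, under 2-fold, and there is 1 Phkb probe set.

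The dependence of the PRDM14 difference on the knockdown was taken as the knockdown difference of PRDM14 minus its scramble difference, and a gene was called at a size of at least 1 on the log2 scale. Of 32 genes 4 were called (12.5%), against 2.27% of 10519 genes. Below 0 were Slc2a1 (−1.23, and −0.92 on its second probe set), Tpi1 (−1.10, and −1.19 on its second) and Ndrg1 (−1.26). They were 3 of 32, against 1.29% of all genes. Phkb (2.12) was above, 1 of 32 against 0.979%, but with low values lifted to the filter it was 0.96, under the limit, and 3 calls were left. Epas1 (−0.97), Aldoc (−0.94), Mgarp (−0.87) and Hk2 (−0.84) lay just under the limit, as did Ldhb on the other side (0.80, and 0.92 on its second probe set). The dimmer probe sets of Epas1 and Aldoc, below the filter on all arrays, gave −0.10 and 0.29. The group's median was −0.28, against −0.004 for all genes, and 23 of 32 genes were below 0. No test of this dependence could be made with 1 array per condition, and it uses all 4 arrays, the Scramble array among them.

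An average effect of each factor was fitted over all 4 arrays in limma with an additive model, which leaves 1 residual degree of freedom per gene. That residual is the dependence of the PRDM14 difference on the knockdown, described above. The SEs and p-values draw on it and on its spread over all genes, and hold no replicate error. No gene of the group passed an adjusted p of 0.05 for either factor, against 0% of 10519 genes. Without adjustment, 4 of 32 genes (12.5%) were under 0.05 for PRDM14, against 6.07% of all genes, and 5 of 32 (15.6%) for the knockdown, against 5.74%. The average knockdown effect of Pfkp was −1.18 with an SE of 0.14 (limma, adjusted p = 0.80), with both knockdown differences below 0. The average PRDM14 effect of Mgarp was −1.05 with an SE of 0.26 (limma, adjusted p = 0.78), and that of Slc2a1 was 0.82 with an SE of 0.36 (limma, adjusted p = 0.78).

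As a technical yardstick, the difference between 2 arrays was compared among probe sets of 1 gene. For PRDM14 in scramble cells the pooled SD was 0.26 over 9 genes of the group with several probe sets above the filter, and 0.22 over 3233 genes. For PRDM14 in knockdown cells it was 0.18 in the group and 0.15 over all. This spread covers neither cultures nor arrays. Counting probe sets in place of genes, 7 of 44 (15.9%) were called for PRDM14 in scramble cells, against 2% of 14900, and 1 of 44 (2.27%) for PRDM14 in knockdown cells, against 0.582% of 14788. For the knockdown, 3 of 44 (6.82%) were called without PRDM14, against 1.09% of 14869, and 2 of 43 (4.65%) with it, against 1.02% of 14817. Among the 7, Slc2a1 and Tpi1 were each counted by 2 probe sets, and the dimmer Vegfa probe set was included. Among the 3 was the dimmest Pdk1 probe set. Probe sets of 1 gene are repeat readings of the same arrays, so these counts are not separate from the gene counts.

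Other genes of the pathway were counted from lists of 91 genes, of which 80 were on the array. With PRDM14 in scramble cells 1 of 62 above the filter was higher and 1 lower, near the 1.09% and 1% of all genes, and the median was 0.04. The higher one was Cited2, a HIF-induced inhibitor of HIF transcription, at 1.12. The lower one was Pck2, the mitochondrial enzyme that makes phosphoenolpyruvate, at −1.51. With PRDM14 in knockdown cells 1 of 61 was lower, against 0.272% of all genes. It was Ak4, a mitochondrial adenylate kinase known as a HIF target (−1.14), and the median was −0.07.

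Without PRDM14 the knockdown read 2-fold lower for 2 of the 62, against 0.444% of all genes. They were Ddit4, an mTOR inhibitor induced by hypoxia and other stresses (−1.25), and Pck2 (−1.09). With PRDM14 none of 61 was called in either direction, against 1.1% of all genes, and the median was −0.06. Among 22 other HIF targets above the filter the median was 0.12 for PRDM14 in scramble cells and −0.18 for the knockdown with PRDM14. In the same order, it was 0.04 and −0.006 for other glycolysis and gluconeogenesis, and −0.04 and −0.02 for other HIF pathway factors. It was −0.20 and −0.02 for glycogen metabolism, −0.04 and −0.13 for pyruvate dehydrogenase and its regulators, and 0.25 and 0.07 for the pentose phosphate pathway. Among 5 pentose phosphate genes, whose pathway branches from glucose phosphate, 5 were above 0 for the knockdown without PRDM14, against 51.6% of all genes. Their median was 0.36, and none was called, against 1.06% of all genes. Mpc1, a subunit of the carrier that brings pyruvate into mitochondria, read 8.19 on Tet1/Tet2 KD + PRDM14, 9.04 on Tet1/Tet2 KD, 8.84 on Scramble + PRDM14 and 8.09 on Scramble. The dependence on the knockdown was called for 4 of the 62 genes, against 2.27% of all genes. Mpc1 (−1.60) and Ak4 (−1.59) were below 0, and Pck2 (1.22) and Ddit4 (1.03) were above.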

How the data were processed

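Per the labels, total RNA was prepared with a 3′ in vitro transcription kit for Affymetrix arrays. The deposited table holds log2 signals per probe set, which the authors had already normalized: quartiles differ by at most 0.016 between arrays. The base was read off the range, 2.78 to 13.2. The submitters' processing notes name Affymetrix Expression Console, and neither version, summary method, background step nor build is given in the sources used here. Of 45141 probe sets, 28898 had 1 gene symbol, 551 several, 15588 none and 104 were controls. The first kind was used. The brightest probe set (highest mean of 4 arrays) stood for its gene, and the filter was the median named value, 5.40. Calls need a 2-fold difference with the higher array at the filter. Average effects came from limma 3.58.1 in R 4.3.3 (lmFit, eBayes with trend, Benjamini-Hochberg over all 10519 genes). The fit was also run on simulated arrays with a common noise level for all genes and additive effects only. That setting cannot show that the fit suits these 4 arrays. Alternatives were other fold limits, filters, probe set summaries and normalizations. The gene group and lists were chosen with earlier results of these data known. All measured genes of the group are described, and other pathway genes are named where called in 1 of the 4 comparisons. Mpc1, called for the dependence alone, was named after its value was seen, as were the genes near the dependence limit and those past 1.5-fold. Promoters are from RefSeq.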

Additional observations from a re-analysis of the deposited data

Results flagged for a closer look

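In 4 genes the difference made by 1 factor had opposite directions at the 2 levels of the other and the 2 values lay at least 1 apart on the log2 scale. This was not tested, since each condition had 1 array. They are the same 4 of 32 genes (12.5%) called for the dependence, against 2.27% of 10519 genes. Over all genes the sign was the same in 55.3% for the PRDM14 differences and in 53.2% for the knockdown differences, so opposite signs were common. The share of all genes that meets both conditions is not given here. Phkb had PRDM14 differences of 0.46 in knockdown and −1.65 in scramble cells, a dependence of 2.12, and its knockdown difference was 0.40 with PRDM14 and −1.72 without it. Ndrg1 had PRDM14 differences of −0.52 in knockdown and 0.74 in scramble cells, a dependence of −1.26, and knockdown differences of −0.37 with PRDM14 and 0.89 without it. Slc2a1 had a knockdown difference of −1.07 with PRDM14 and 0.16 without it, a dependence of −1.23. Its second probe set gave −0.97 and −0.05, the same direction, and a dependence of −0.92, so it met neither condition. Tpi1 had a knockdown difference of −0.62 with PRDM14 and 0.48 without it, a dependence of −1.10. Phkb was below the filter on both knockdown arrays, and with low values lifted to the filter its PRDM14 difference in knockdown cells was 0 and its dependence 0.96, so neither the opposite direction nor the size of 1 was left. Each dependence uses all 4 arrays, among them Scramble, which stood furthest from the others over all genes. Slc2a1 and Tpi1 lay further from the next array on Scramble + PRDM14 (1.07 and 0.62 above) than on Scramble (0.16 and 0.48 below). For Phkb and Ndrg1 the larger gap was on Scramble (1.25 above and 0.37 below).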

How the results depend on the processing

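With 1 array per condition no array could be left out of a comparison. No paired analysis was possible because each group has 1 sample and the labels carry no replicate numbers. Of 74 recomputed counts and medians 61 kept their value within 1.5 times or within the probe set spread, and no sign of a called gene turned. For PRDM14 in scramble cells, PRDM14 in knockdown cells and the knockdown without PRDM14, that spread over all genes was 0.22, 0.15 and 0.21. The group medians there were smaller, 0.16, 0.04 and 0.05, so the tally cannot show that these medians are stable. It also includes the limma counts, which were 0 throughout. At 1.5-fold the calls were 9 for PRDM14 in scramble cells (7 higher, with percent called 4.28 over all genes), 2 for PRDM14 in knockdown cells, 5 for the knockdown without PRDM14, 6 for the knockdown with PRDM14 and 10 for the dependence. At 3-fold they were 1, 0, 1, 0 and 1 in the same order. With values raised to the filter PRDM14 in scramble cells had 3 calls and the knockdown without PRDM14 had 1, as Phkb was then at −0.96 in both. The dependence then had 3, as Phkb was at 0.96. With all probe sets of a gene averaged, the knockdown had 1 call without and 1 with PRDM14, since Pfkp was at −0.73 without and −0.78 with PRDM14. The share of all genes called is not given here at 3-fold, with raised values or with averaged probe sets. Those counts thus show only how the group's calls depend on the processing, and cannot be set against the array as a whole. Quantile normalization and median centring moved no count by over 1.5 times. In limma 0 genes of the group passed for either factor under each alternative run, and without the variance trend 3 for PRDM14 and 5 for the knockdown were under an unadjusted p of 0.05. Signal near the filter limits Phkb, Slc16a3, Pfkfb3 and P4ha2.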
